A study of Mus musculus with 6 samples.

Results

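The 10 genes described here make or control the pyruvate dehydrogenase reaction. They are the kinases Pdk1, Pdk2, Pdk3 and Pdk4, the phosphatases Pdp1 and Pdp2, the E1 subunits Pdha1 and Pdhb, and the mitochondrial pyruvate carriers Mpc1 and Mpc2. They were picked by gene symbol as 10 of the 49366 genes in the deposited table of reads near transcript starts, where each gene has a window, and all 10 had a row there. The assay was ATAC-seq, in which a transposase cuts accessible DNA, so a read count measures how open the chromatin of a region was and not how much RNA was made. Reads came from PCM1+ nuclei, sorted to enrich the nuclei of muscle fibres.

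The groups were muscles of male C57BL/6J mice, 8 weeks old at treatment, that received AAV6 vectors in the gastrocnemius and tibialis anterior. The Yap and control vectors were given to contralateral muscles, that is, to opposite limbs, so both groups can hold muscles of the same mice. AAV6:Yap-shRNA carried a short hairpin RNA against Yap, a coactivator of TEAD factors that is restrained by the Hippo pathway, and AAV6:LacZ-shRNA carried a hairpin against a bacterial gene. Muscles were taken after 28 days, and 4 gastrocnemius and 4 tibialis anterior muscles were pooled for each replicate, with 3 replicates per group. Per the study's methods the Yap hairpin sequence was placed in a plasmid with a CMV promoter and eGFP, and pooling hides differences between animals. The labels do not say which animals gave which pool, so p-values measure the spread between these pools.

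Pyruvate dehydrogenase is the mitochondrial complex that turns pyruvate into acetyl-CoA and so commits carbohydrate to oxidation. The Mpc1 and Mpc2 proteins form the carrier that brings pyruvate into the matrix, the E1 enzyme built from the Pdha1 and Pdhb products carries out the decarboxylation, the Pdk kinases switch E1 off by phosphorylation and the Pdp phosphatases switch it on again. In skeletal muscle Pdk4 is known for its induction by fasting and by fatty acids, and Pdk2 is widely expressed.

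Promoter sequences are shown for the kinase genes with the highest window levels per kb (Pdk4 and Pdk2) and for the E1 subunit genes (Pdha1 and Pdhb), which differ from one another in the letters they hold. Sequences are from RefSeq on GRCm38.p6, 300 bases each, written 5′ to 3′ on the strand of the gene, with 250 bases before the start site and 50 from it. Capitals mark matches on either strand to the CCAAT box (CCAAT, which reads ATTGG from the opposite strand), to the SP/KLF string GGGCGG and to the E-box CACGTG. Each stretch lay inside the ATAC-seq peak over its promoter.
Pdk4, minus strand, chr6:5496229-5496528: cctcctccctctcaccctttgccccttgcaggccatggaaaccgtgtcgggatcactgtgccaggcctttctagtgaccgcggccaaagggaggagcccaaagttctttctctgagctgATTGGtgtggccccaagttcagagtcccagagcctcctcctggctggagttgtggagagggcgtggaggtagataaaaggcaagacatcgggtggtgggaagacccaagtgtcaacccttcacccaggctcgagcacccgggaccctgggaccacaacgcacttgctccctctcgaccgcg
Pdk2, minus strand, chr11:95041322-95041621: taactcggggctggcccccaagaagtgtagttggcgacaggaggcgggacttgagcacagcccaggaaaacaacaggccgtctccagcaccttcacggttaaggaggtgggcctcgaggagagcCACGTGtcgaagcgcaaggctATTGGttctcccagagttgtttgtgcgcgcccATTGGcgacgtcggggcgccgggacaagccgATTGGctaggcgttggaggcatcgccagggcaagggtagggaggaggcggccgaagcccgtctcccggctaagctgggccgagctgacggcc
Pdha1, minus strand, chrX:160138381-160138680: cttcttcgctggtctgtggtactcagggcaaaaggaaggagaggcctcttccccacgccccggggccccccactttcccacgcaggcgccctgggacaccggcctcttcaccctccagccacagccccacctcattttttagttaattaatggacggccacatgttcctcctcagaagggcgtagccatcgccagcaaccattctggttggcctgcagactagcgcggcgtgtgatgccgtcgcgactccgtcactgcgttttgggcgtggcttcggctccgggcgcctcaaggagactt
Pdhb, minus strand, chr14:8172943-8173242: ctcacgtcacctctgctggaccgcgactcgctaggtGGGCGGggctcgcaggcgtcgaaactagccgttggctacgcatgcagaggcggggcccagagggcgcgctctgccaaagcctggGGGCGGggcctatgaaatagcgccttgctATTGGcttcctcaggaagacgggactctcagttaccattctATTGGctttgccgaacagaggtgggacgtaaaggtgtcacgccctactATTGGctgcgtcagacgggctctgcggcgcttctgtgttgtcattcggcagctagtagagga
The Pdk2 promoter held ATTGG 3 times, at -105, -73 and -42 from the start site, and CACGTG at -126. The Pdhb promoter also held ATTGG 3 times, at -101, -60 and -12, with GGGCGG at -214 and -130. The Pdk4 promoter held a single ATTGG at -131, and the Pdha1 promoter held none of the strings searched.

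RefSeq promoters matched 9 of the 10 genes by symbol, all but Pdp1, and gave 12 sequences. A CCAAT box was held by 7 of the 9 genes (Mpc1, Mpc2, Pdhb, Pdk2, Pdk3, Pdk4 and Pdp2), where 37.41% of 32851 promoters of the same length held one. The SP/KLF string GGGCGG was held by 6 of the 9 (Mpc1, Mpc2, Pdhb, Pdk1, Pdk3 and Pdp2), against 35.66% of promoters, and CACGTG by Pdk2 and Pdp2, against 7.15%. The TEAD string ACATTCC was in 0 of the 9 genes' promoters and in 3.85% of all promoters. TCAAGGTCA (ERR, 0.42% of promoters), GTAAACA (FOXO, 3.65%), TGANTCA (AP-1, 7.81%) and the NRF1 motif (0.97%) were also in 0 of the 9, while ACANNNTGT (glucocorticoid receptor, 6.85%) was in a second Mpc1 promoter. All strings were searched on both strands, no matches in these promoters overlapped each other, a gene with several promoters counted once if any held the string, and these are matches of letters in short windows, not binding sites.

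Window counts totalled from 3326803 to 10319467 reads per sample, and counts in peaks from 2588520 to 6871176. LacZ-shRNA replicates 1 and 2 were the shallowest. LacZ-shRNA replicate 1 stood apart, with a median deviation of -0.17, in log2(CPM + 1), from the mean of the 6 samples over the 13000 windows that hold a peak, where the other samples lay between -0.01 and 0.08. Over the 10 genes its median deviation was -0.185, it was the lowest LacZ-shRNA sample in 8 of the 10, and LacZ-shRNA replicate 3 was the highest in 7. Of the 14 muscle fibre markers examined, the median window held 16.4 CPM (reads scaled to a common library size) per kb, above 97.9% of all windows. The medians of the other marker lists lay above 75.0% (adipocyte), 70.9% (endothelial), 67.8% (leukocyte), 45.4% (satellite cell) and 39.6% (fibroblast) of all windows.

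The genes differed widely in how open their windows were. A window takes in 1 kb before and after all annotated starts, so genes with many starts have longer windows, and levels are compared between genes as CPM per kb of window, normalised by the trimmed mean of M-values (TMM). In LacZ-shRNA the order was Pdk4 at 36.1 ± 6.09, Pdk2 at 23.1 ± 3.97, Mpc1 at 16.8 ± 2.25, Pdhb at 13.9 ± 2.27 and Pdp2 at 10.9 ± 2.66 CPM per kb (SD, n = 3). Pdk1 followed at 10.1 ± 1.34, Pdha1 at 9.65 ± 0.685, Mpc2 at 4.59 ± 0.727, Pdk3 at 2.47 ± 0.282 and Pdp1 at 1.36 ± 0.379 CPM per kb (SD, n = 3). The ranges of neighbours in this order overlapped for Mpc1 and Pdhb, Pdhb and Pdp2, Pdp2 and Pdk1, and Pdk1 and Pdha1, so these are not separated by the 3 samples, while the other neighbours did not overlap. In mean level over all 6 samples of both groups, Pdk4 lay above 99.8% of all windows and Pdk2 above 99.2%, whereas Pdk3 lay above 14.2% and Pdp1 above 3.7%. Pdha1 and Pdk3 lie on the X chromosome, which male mice carry in a single copy. Their levels, by window or by peak, are thus not directly comparable with those of genes on other chromosomes.

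**Figure D1:**
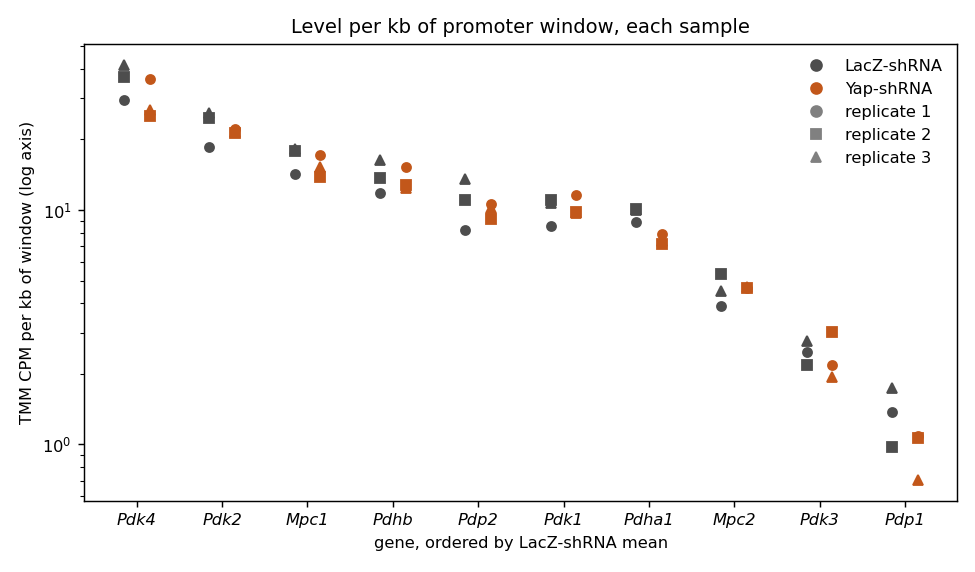
Level of each promoter window in each sample, in TMM-normalised CPM per kb of window on a log axis, with genes ordered by the LacZ-shRNA mean and symbols for replicates. Pdk4 is at the top with 36.1 CPM per kb and Pdp1 at the bottom with 1.36.

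The order was different in promoter peaks, the stretches the authors' peak caller marked over the windows. Per kb of peak in LacZ-shRNA, Mpc2 was at 61.8, Pdk4 at 57.8, Pdp1 at 51.7, Mpc1 at 49.5, Pdhb at 44.9, Pdk1 at 43.7, Pdk2 at 41.6, Pdha1 at 31.7 and Pdp2 at 23.7 CPM. Pdp1 and Mpc2, near the bottom by window, were thus among the highest by peak, and Pdp2 was lowest. Pdk1 came above Pdk2 in mean only, since their LacZ-shRNA samples overlapped per kb. The Pdk2 peak was 3725 bp wide and that of Pdk1 1170 bp. The windows of Pdp1 and Mpc2 overlap the window of a neighbour, 1700123M08Rik for Pdp1 and Dcaf6 for Mpc2, and reads shared by overlapping windows are largely missing from such rows. The Pdp1 window held 142 reads over all 6 samples, 5.4% of the 2654 reads of the peak over it, and the Mpc2 window 1010 reads, 17.1% of the 5915 in its peak. In the other 7 genes with a peak the window held 105.6 to 158.7% of the peak's reads. Reads in these peaks cannot be assigned to either of the neighbouring promoters. The window of Pdk3 overlapped no other window, and there was no peak over it or within 50 kb of its starts.

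Between groups, 0 of the 10 windows passed the threshold of edgeR's quasi-likelihood test at an adjusted p of 0.05, where 11 of all 49366 windows did (0.0223%). An unadjusted p under 0.05 was given to 0 higher and 2 lower windows, Pdha1 and Pdk4, against 1.9% and 3.01% of all windows. The log2 fold change of Yap-shRNA against LacZ-shRNA was above 0 in 2 genes and below 0 in 8, with a median of -0.11, while the windows that hold a peak had a median of 0.01, with 46.9% below 0. These signs rest on single libraries. Without LacZ-shRNA replicate 3 the split was 6 above and 4 below with a median of 0.02, and without LacZ-shRNA replicate 1 it was 0 above and 10 below with a median of -0.23. The 95% intervals of the 9 genes other than Pdp1 lay between -0.64 and 0.35.

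**Figure D2:**
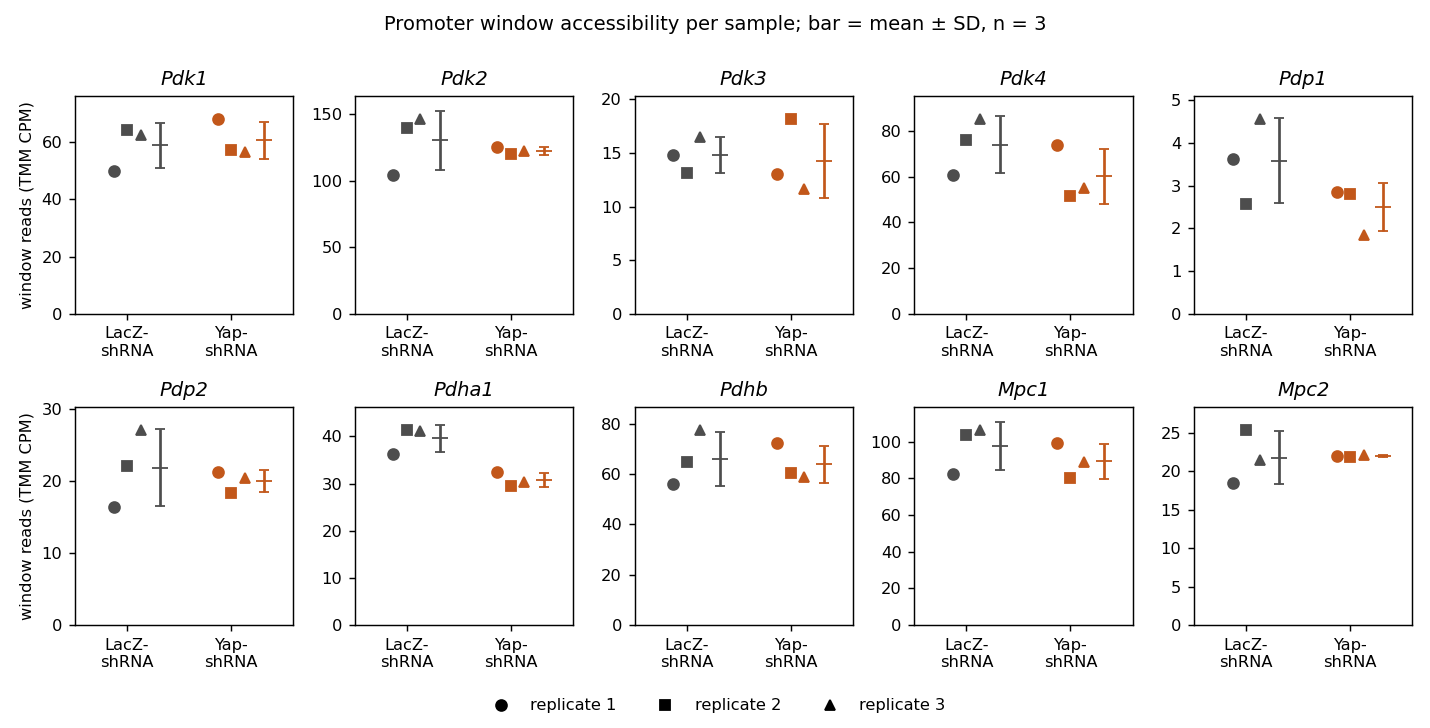
Reads in the promoter window of each gene in each sample, in TMM-normalised CPM on axes that start at 0, with the mean and SD of 3 samples beside the points. Only Pdha1 has all 3 Yap-shRNA samples below all 3 LacZ-shRNA samples.

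The kinases are the off switches of the complex. Pdk4 (ENSMUSG00000019577, GRCm38 chr6:5483351-5496309, minus strand) has 3 annotated starts close together, so its window is a single stretch over the first exon and promoter. It held 60.6, 75.9 and 85.3 CPM in LacZ-shRNA replicates 1 to 3 and 74.0, 51.6 and 54.9 CPM in Yap-shRNA. Yap-shRNA replicates 2 and 3 lay below every LacZ-shRNA sample, but Yap-shRNA replicate 1 lay among them, so the groups overlapped. The log2 fold change was -0.30 (SE 0.15, 95% interval -0.60 to -0.004), with an unadjusted p of 0.0473 and an adjusted p of 0.946 in edgeR's quasi-likelihood test. Without LacZ-shRNA replicate 1 the value was -0.44 with an adjusted p of 0.0627, the lowest adjusted p that any setting gave for the 10 genes, and without LacZ-shRNA replicate 3 it was -0.17. In the peak over the Pdk4 promoter (chr6:5495729-5497378) the groups also overlapped. Its log2 fold change was smaller, at -0.22 (SE 0.13, 95% interval -0.49 to 0.05, edgeR unadjusted p 0.104), and -0.08 when scaled by library size alone.

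Pdk2 (ENSMUSG00000038967, chr11:95026258-95041354, minus strand) held 104.6, 139.7 and 146.3 CPM in LacZ-shRNA and 125.4, 119.7 and 122.0 CPM in Yap-shRNA. The Yap-shRNA samples lay close together, between the lowest LacZ-shRNA sample and the other two, and the log2 fold change was -0.09 (SE 0.14, 95% interval -0.37 to 0.20, edgeR adjusted p 0.974). Pdk1 (ENSMUSG00000006494, chr2:71873224-71903858, plus strand) held 49.9, 64.4 and 62.4 CPM in LacZ-shRNA and 68.1, 57.4 and 56.7 CPM in Yap-shRNA. The groups overlapped, with the highest and the lowest value each in a replicate 1, and the log2 fold change was 0.05 (SE 0.14, 95% interval -0.23 to 0.33, edgeR adjusted p 0.985).

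Pdk3 (ENSMUSG00000035232, chrX:93764607-93832201, minus strand) had the lowest level per kb of the kinase windows, and held 14.8, 13.1 and 16.5 CPM in LacZ-shRNA and 13.0, 18.2 and 11.6 CPM in Yap-shRNA. Both extremes were Yap-shRNA samples, and the log2 fold change was -0.08 (SE 0.18, 95% interval -0.44 to 0.29, edgeR adjusted p 0.983), with the opposite sign when either of the replicates numbered 3 was left out. Its 3 annotated starts lie far enough apart to give 3 separate window parts, which are summed in the deposited row.

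The phosphatases reactivate E1. Pdp1 (ENSMUSG00000049225, chr4:11958184-11966452, minus strand) held 20, 8 and 40 reads in LacZ-shRNA and 28, 30 and 16 in Yap-shRNA, or 3.62, 2.56 and 4.56 against 2.85, 2.79 and 1.85 CPM. LacZ-shRNA replicate 2 lay between Yap-shRNA values, so the groups overlapped, and the log2 fold change, at -0.58, had the widest error of the 10 (SE 0.33, 95% interval -1.24 to 0.08, edgeR adjusted p 0.946). Its promoter peak (chr4:11965469-11967181), which also covers the start of 1700123M08Rik, held 81.9, 85.8 and 97.8 CPM in LacZ-shRNA and 85.4, 71.7 and 62.9 CPM in Yap-shRNA. Yap-shRNA replicate 1 lay within the LacZ-shRNA range, and the log2 fold change was -0.28 (SE 0.13, 95% interval -0.54 to -0.02), with an unadjusted p of 0.037 and an adjusted p of 0.513 in edgeR. With the replicate number as a block the unadjusted p was 0.0607.

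Pdp2 (ENSMUSG00000048371, chr8:104591451-104599026, plus strand) has a single annotated start. Its window held 16.5, 22.1 and 27.1 CPM in LacZ-shRNA and 21.3, 18.3 and 20.4 CPM in Yap-shRNA. All Yap-shRNA samples lay inside the LacZ-shRNA range, and the log2 fold change was -0.15 (SE 0.16, 95% interval -0.48 to 0.18, edgeR adjusted p 0.958), or 0.08 without LacZ-shRNA replicate 3.

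The E1 subunits form the enzyme that the kinases and phosphatases act on. Pdha1 (ENSMUSG00000031299, chrX:160122209-160138413, minus strand), which encodes the catalytic alpha subunit that is phosphorylated, held 36.4, 41.3 and 41.1 CPM in LacZ-shRNA and 32.4, 29.4 and 30.4 CPM in Yap-shRNA. All 3 Yap-shRNA samples lay below all 3 LacZ-shRNA samples, which was so for 4.79% of all windows. The log2 fold change was -0.36 (SE 0.14, 95% interval -0.64 to -0.09), with an unadjusted p of 0.0108, rank 495 among 49366 windows, and an adjusted p of 0.946 in edgeR. The difference stayed between -0.43 and -0.33 with each sample left out, and was -0.30 when scaled by library size alone. The peak over its promoter (chrX:160137580-160138874) held 42.4, 40.3 and 40.4 CPM in LacZ-shRNA and 35.3, 32.2 and 33.2 CPM in Yap-shRNA. The groups again did not overlap, and the log2 fold change was -0.29 (SE 0.13, edgeR unadjusted p 0.0291, adjusted p 0.468), and the unadjusted p was 0.0532 with the replicate number as a block. Window and peak share reads, so they are not independent measurements.

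Pdhb (ENSMUSG00000021748, chr14:8165996-8173025, minus strand), the beta subunit, held 56.1, 64.7 and 77.5 CPM in LacZ-shRNA and 72.3, 60.5 and 59.0 CPM in Yap-shRNA. All Yap-shRNA samples lay within the LacZ-shRNA range. The log2 fold change was -0.06 (SE 0.14, 95% interval -0.34 to 0.23, edgeR adjusted p 0.984), and it was 0.02 in the peak over the promoter.

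The carriers supply the complex with pyruvate. Mpc1 (ENSMUSG00000023861, chr17:8282904-8297661, plus strand) held 82.5, 103.8 and 106.3 CPM in LacZ-shRNA and 99.3, 80.3 and 88.8 CPM in Yap-shRNA. Yap-shRNA replicate 2 was the lowest sample but lay close to LacZ-shRNA replicate 1, and the log2 fold change was -0.12 (SE 0.14, 95% interval -0.40 to 0.15, edgeR adjusted p 0.959). Mpc2 (ENSMUSG00000026568, chr1:165460637-165481214, plus strand) held 18.5, 25.3 and 21.4 CPM in LacZ-shRNA and 21.9, 21.9 and 22.1 CPM in Yap-shRNA. The Yap-shRNA samples were nearly level inside the LacZ-shRNA range, at a log2 fold change near 0 (0.04, SE 0.15, 95% interval -0.27 to 0.35, edgeR adjusted p 0.99). In the peak shared with Dcaf6 (chr1:165459180-165462169) the value was -0.11 (SE 0.14), so its sign depended on the region counted.

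**Figure D3:**
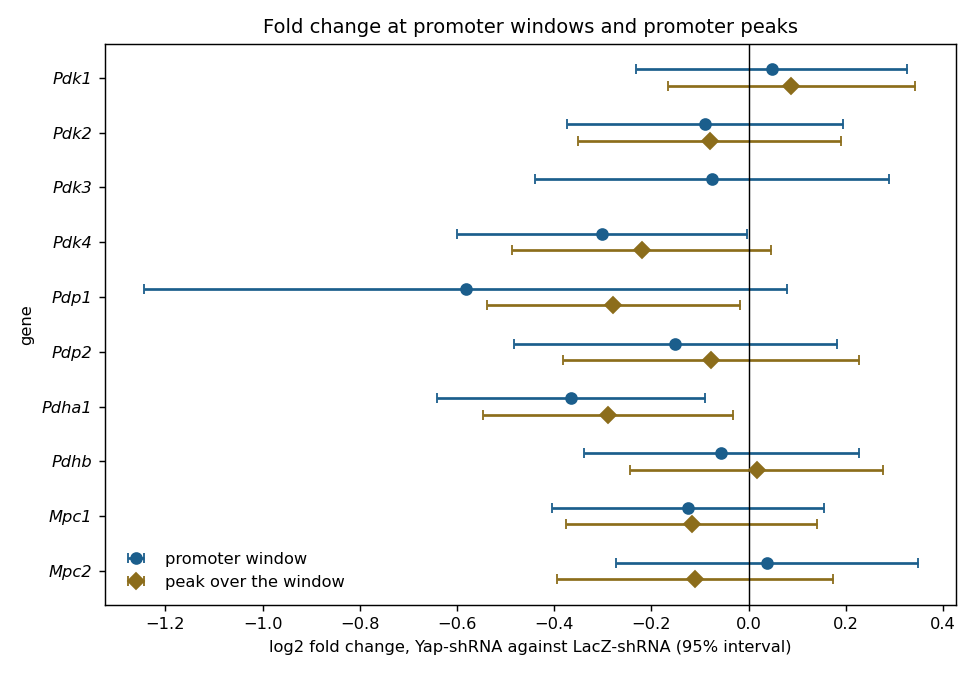
Log2 fold change of Yap-shRNA against LacZ-shRNA with its 95% interval for the promoter window of each gene and for the peak over it, 3 samples per group. The intervals of Pdha1 lie below 0 for both regions, those of Pdk4 for the window and of Pdp1 for the peak, none with an adjusted p under 0.05, and Pdk3 has no peak.

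Peaks were linked to a gene where they overlapped its window or gene body or lay within 50 kb of one of its transcript starts. This gave 34 peaks, 9 over windows (1 for each gene but Pdk3) and 25 others, of which Pdp2 had 6, Pdk2 had 5, Pdk4, Pdp1 and Mpc1 had 3 each, Pdhb and Mpc2 had 2 each, Pdk1 had 1 and Pdha1 had 0. Distance alone does not show that a peak acts on the gene, and many of these peaks lie in or near other genes. None of the 34 passed the adjusted threshold in edgeR (smallest adjusted p 0.357), against 0.618% of 36097 peaks, and 2 higher and 2 lower had an unadjusted p under 0.05, against 3.59% and 5.31% of peaks. The 9 promoter peaks had a median log2 fold change of -0.11, with 2 above and 7 below 0, and the 25 others a median of 0.11, with 18 above and 7 below, beside a median of -0.003 over all peaks. Scaled by library size alone, which moves the median of all peaks to 0.14, the promoter peaks had 6 above and 3 below 0, and with loess offsets 4 above and 5 below.

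The 4 linked peaks whose groups did not overlap were the Pdha1 promoter peak, which was lower, and 3 that were higher, against 6.76% and 6.55% of all peaks. The higher ones were a peak in Pxk 37093 bp from Pdhb (chr14:8129265-8130003, log2 fold change 0.41, SE 0.25, edgeR adjusted p 0.681) and a pair linked to Pdp2. Each of the pair was nearer to the start of another gene. One lay in Cdh16 (chr8:104607720-104608599), 16269 bp from Pdp2 and 4665 bp from the start of Cdh16, at 0.26 (SE 0.15). The other (chr8:104564807-104565354) lay 26097 bp from Pdp2 and 7820 bp from Gm45843, at 0.25 (SE 0.21). The pair was named after its values were seen. The largest log2 fold change among the named peaks was 0.54 (SE 0.21, 95% interval 0.12 to 0.96, edgeR unadjusted p 0.0134), at a peak over the start of Adcy10, 25443 bp from a start of Mpc2 (chr1:165503585-165504251). It held 12.3, 11.5 and 8.99 CPM in LacZ-shRNA and 18.6, 15.8 and 11.6 CPM in Yap-shRNA. The lowest Yap-shRNA sample lay inside the LacZ-shRNA range.

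Other peaks away from the promoters of the 10 genes gave smaller or less certain differences. A peak 48376 bp from Mpc1 and nearer to Ccr6 (chr17:8233678-8234528) had 0.42 on the log2 scale (SE 0.19, edgeR unadjusted p 0.0305, adjusted p 0.477). A peak in Gm33023, 41726 bp from Pdp2 (chr8:104633177-104633745), had 0.38 (SE 0.21), and a peak in Itga6, 20408 bp from Pdk1 (chr2:71852120-71852816), 0.15 (SE 0.27). A peak over the start of Ppp1r9b, 37121 bp from Pdk2 (chr11:94990699-94991455), had -0.13 (SE 0.16). The nearest start to the peak 12695 bp upstream of Pdk4 (chr6:5509004-5510562) was that of Pdk4. It held 71.7, 89.2 and 81.2 CPM in LacZ-shRNA and 81.0, 62.3 and 67.3 CPM in Yap-shRNA, with Yap-shRNA replicates 2 and 3 below every LacZ-shRNA sample as at the Pdk4 promoter, for a value of -0.19 on the log2 scale (SE 0.13, edgeR adjusted p 0.731). A peak in 1700123M08Rik and Gm26895, 19864 bp from Pdp1 and nearer to the start of Gm10604 (chr4:11986316-11988298), had -0.22 (SE 0.13). In the central 300 bases, ACATTCC was in 0 of the 34 linked peaks and 2.17% of 35972 peaks, GTAAACA in 2 (the promoter peaks of Pdk2 and Pdk4, against 2.11%), GGGCGG in 14 (against 26.99%) and CCAAT in 13 (against 30.11%). GGGCGG was in 8 of the 9 promoter peak centres but 6 of the 24 peaks within 50 kb. Those promoter peak centres include Pdk2, Pdk4 and Pdha1, whose printed promoter stretches lack the string.

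**Figure D4:**
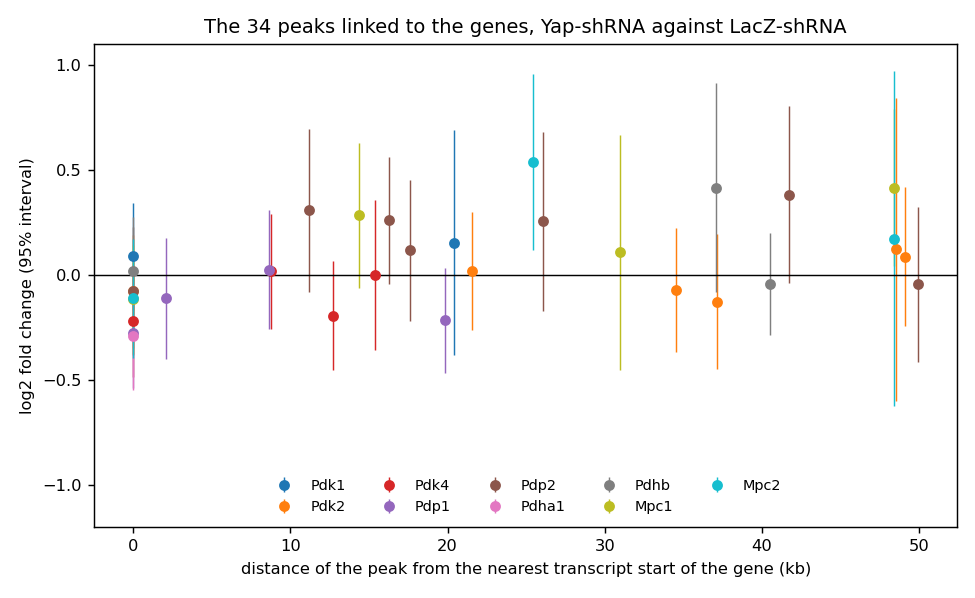
Log2 fold change with its 95% interval for the 34 linked peaks against their distance in kb from the nearest start of the gene, coloured by gene. Peaks at distance 0 are those over promoters, with a median of -0.11, and the 25 others have a median of 0.11.

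The rest of the pathway was read from the same fit. Of 10 other subunits and lipoylation genes, 5 lay above and 5 below 0 with a median of 0.03, and 0 passed the threshold. The smallest p-value in each direction was that of Nfu1, an iron-sulphur carrier for lipoate synthesis, at 0.22 (SE 0.15), and Lipt1, a lipoyl transferase, at -0.18 (SE 0.15). Dlat, the E2 core of the complex, had a log2 fold change of -0.003 (SE 0.13), and Dld, the E3 enzyme, -0.13 (SE 0.14, edgeR unadjusted p 0.36). Every Yap-shRNA sample of Dld lay below every LacZ-shRNA sample, which was so for 4.79% of all windows. These 2 genes were singled out after their values were seen.

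Of 16 other genes listed for pyruvate handling or for steps near it, 9 lay above and 7 below 0 (median 0.02), and 0 passed. Pck2, the mitochondrial PEP carboxykinase, whose window overlaps another, had the smallest p of the higher ones, at 0.34 (SE 0.15, edgeR unadjusted p 0.0245, adjusted p 0.946), and Gpt2, a mitochondrial alanine transaminase, of the lower ones, at -0.25 (SE 0.14). The 8 genes of the related alpha-keto acid dehydrogenases had 5 above and 3 below (median 0.03), with 0 passing. Among them Bckdha, the branched-chain E1 alpha subunit, had 0.40 (SE 0.17, edgeR adjusted p 0.946), a value from a window that overlaps another, and Ogdh -0.09 (SE 0.14). The 15 factors known to act on Pdk4 had 5 above and 10 below (median -0.08), again with 0 passing. The smallest p above 0 was that of Srebf1, another overlapping window, at 0.21 (SE 0.14), and below 0 that of Foxo3 at -0.26 (SE 0.14). For comparison, all windows had a median of -0.01.

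Marker genes were read to see what moved beside these values, and their part in them was not tested. The genes given for each list are those with the smallest p in each direction, and the windows of Neb, Mylpf, Pdgfra, Pecam1 and Vcam1 overlap others, so shared reads may be missing from them. The 14 muscle fibre markers had 4 above and 10 below 0 (median -0.06) with summed levels of 1595 to 2208 CPM in LacZ-shRNA and 1727 to 1996 in Yap-shRNA, with Neb at 0.22 (SE 0.15) and Mylpf at -0.28 (SE 0.14). The 8 fibroblast markers had 5 above and 3 below (median 0.17), and sums of 240.6 to 270.5 against 269.1 to 321.4 CPM, with Col1a1 at 0.39 (SE 0.14) and Pdgfra at -0.25 (SE 0.14). The 7 endothelial markers had 3 above and 4 below (median -0.08), with sums of 169.9 to 180.4 against 160.2 to 169.2 CPM, Pecam1 at 0.16 (SE 0.14) and Kdr at -0.59 (SE 0.17). The endothelial sums did not overlap between groups, but only narrowly, with a lowest LacZ-shRNA sum of 169.9 and a highest Yap-shRNA sum of 169.2 CPM. The fibroblast sums overlapped only at their ends. Genes of both lists went in both directions, and the sums were not tested. An unadjusted p under 0.05 in edgeR was given to 2 fibroblast windows, both higher, and to 2 endothelial windows, both lower. Over all windows these shares were 1.9% higher and 3.01% lower.

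Of 7 leukocyte markers 6 had a window, with 4 above and 2 below (median 0.14), sums of 97.1 to 109.9 against 106.9 to 112.7 CPM, Csf1r at 0.32 (SE 0.14) and Ptprc at -0.30 (SE 0.16). The 5 satellite cell markers had 1 above and 4 below (median -0.08), sums of 79.8 to 89.0 against 76.3 to 80.2 CPM, Vcam1 at 0.17 (SE 0.19) and Calcr at -0.37 (SE 0.16). The 4 adipocyte markers had 3 above and 1 below (median 0.20), sums of 85.4 to 106.7 against 94.4 to 108.4 CPM, Cidec at 0.36 (SE 0.16) and Lep at -0.18 (SE 0.15). None of these lists had a window that passed the threshold. Rows with low counts are not in the deposited table, so the levels say nothing of whether a cell type was absent.

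**Figure D5:**
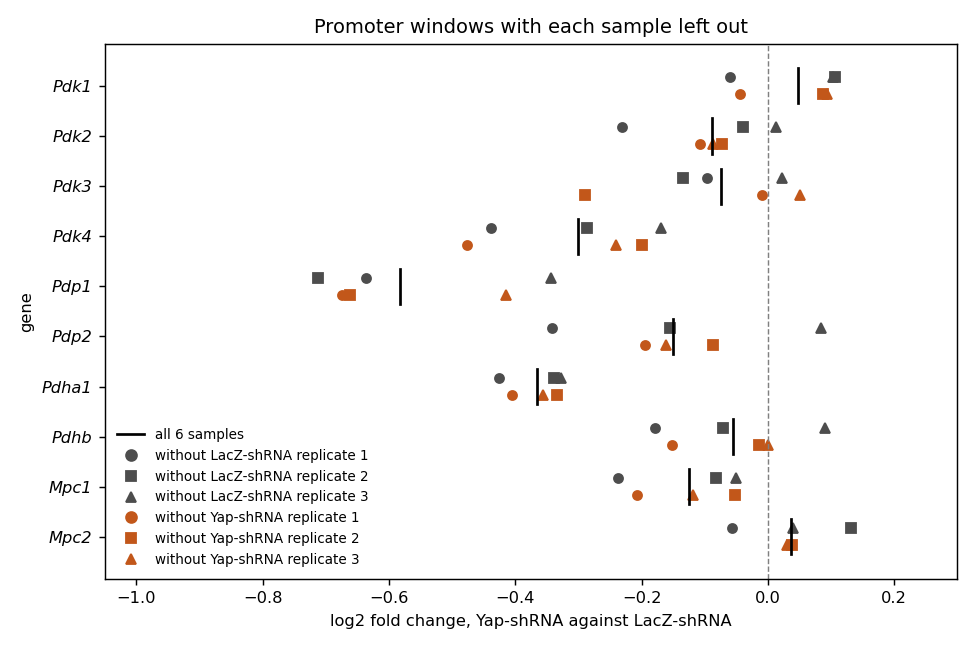
Log2 fold change at each promoter window with all 6 samples (line) and with each sample left out in turn (points). Pdk4, Pdp1, Pdha1 and Mpc1 stay below 0 throughout, with Pdha1 between -0.43 and -0.33, and the other 6 genes cross 0 when a single sample is removed.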

How the data were processed

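ATAC-seq libraries of PCM1+ nuclei from 3 LacZ-shRNA and 3 Yap-shRNA muscle pools were compared. The authors mapped reads to GRCm38 with BWA 0.7.17, took out duplicate reads using SAMtools 1.8, ran MACS 1.4.2-1 for peaks, kept peaks seen in several samples, and used featureCounts 1.5.0 for counting (versions from the submitters' processing notes). The deposited values are whole-number counts per peak and per window, not normalised, and features averaging fewer than 10 reads were left out by the authors. A transposase offset for the reads was not given in the sources used here. Windows proved to cover 1000 bp to each side of all transcript starts, with reads shared by overlapping windows (21.0% of windows) uncounted: peaks inside were held to at least 0.95 by 99.98% of 5562 windows lying alone and by 48.9% of 3932 overlapping ones.

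Counts were tested with edgeR 4.0.16 in R 4.3.3 (quasi-likelihood, TMM factors, no covariate, Benjamini-Hochberg adjustment over the whole table, threshold 0.05). The SE is that implied by the F statistic. The test was checked on simulated counts, drawn independently for each sample, in which 200 features picked at random from all depths were changed. The draws held no sample-wide deviation like that of LacZ-shRNA replicate 1, so the shares may differ for the genes described here. At a log2 change of 0.5 the test recovered 8.5% of changed windows and 6% of changed peaks, and at 1 it recovered 75.5% of each. A lack of calls therefore does not show that differences of the smaller size were absent. Results were recomputed with DESeq2 1.42.0, limma 3.58.1 voom, edgeR's likelihood-ratio test, library size alone, RLE factors, loess offsets, a mean count of at least 50, an adjusted p under 0.1, a replicate block, peak counts in place of window counts, and leaving out each sample.

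The members and lists were chosen with earlier results of these data known. Named were all 10 genes, each promoter peak, the other linked peak with the smallest p per gene, and in each list any gene past the threshold or otherwise the smallest p in each direction. Reads are PCR products without molecular identifiers.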

Additional observations from a re-analysis of the deposited data

How the results depend on the processing

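None of the 10 windows, 34 linked peaks or 47 named log2 fold changes passed an adjusted p of 0.05 in any setting that gave one, and 32 of the 47 kept their sign throughout. DESeq2 gave NA for the windows of Pdk3, Pdp1, Pdp2 and Mpc2, 5 of the 34 linked peaks and 11 of the 47. In the wider lists the count of calls ranged from 0 to 1 with a sample left out. The 1 was Fn1, named after its value was seen, at 0.47 (adjusted p 0.0478) without LacZ-shRNA replicate 1 against 0.21 with all samples. Over all windows the 11 calls numbered 20 in DESeq2 (38284 adjusted p-values NA), 33 by the likelihood-ratio test, 23 with voom and 29 with loess offsets. With a sample left out they ranged from 4 to 157, the lowest when Yap-shRNA replicate 2 was omitted (5 for Yap-shRNA replicate 1) and the highest for LacZ-shRNA replicate 1. Over all peaks the 223 calls numbered 364 at an adjusted p under 0.1, 118 in DESeq2, 378 by the likelihood-ratio test, 143 with loess offsets and 136 at a mean count of at least 50, and ranged from 94 (without Yap-shRNA replicate 1 or 2) to 447 (without LacZ-shRNA replicate 3), with 132 without LacZ-shRNA replicate 2. Library size alone divided 229 peak calls into 124 higher and 105 lower, against 17 and 206. The causes were not tested.

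Signs reversed with a sample left out in the windows of Pdk1 (-0.060 to 0.106), Pdk2 (-0.231 to 0.012), Pdk3 (-0.289 to 0.051), Pdp2 (-0.342 to 0.084), Pdhb (-0.179 to 0.090), Mpc2 (-0.057 to 0.131) and Ogdh (-0.219 to 0.043). They also reversed in the promoter peaks of Pdk1 (-0.005 to 0.145), Pdp2 (-0.147 to 0.029) and Pdhb (-0.075 to 0.180), and in the distal peaks of Pdk1 (-0.109 to 0.406) and Pdk2 (-0.238 to 0.129). Library size alone reversed the Pdhb window (0.007), the promoter peaks of Pdk2 (0.065), Pdp2 (0.060), Mpc1 (0.026) and Mpc2 (0.033), and the distal Pdk2 peak (0.013). Loess offsets reversed the promoter peaks of Pdk2 (0.031) and Mpc2 (0.017), and peak counts in place of window counts reversed Pdhb (0.017) and Mpc2 (-0.11). The filter at a mean count of 50 removed Pdp1, and Pdk3 had no peak counts.

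The labels do not say that replicate numbers mark shared animals, and the samples were not treated as pairs. Deviations of same-numbered samples correlated at 0.19, -0.12 and 0.09 over windows and at 0.015, -0.093 and -0.139 over peaks. Those of differently numbered samples ran from -0.26 to 0.199 over windows, so with so few samples the values cannot decide whether pools were paired. With the replicate number as a block 13 windows and 207 peaks were called, and the Pdha1 and Pdk4 windows gave -0.36 and -0.30. The promoter peaks with an unadjusted p under 0.05 in edgeR went from 2 to 0, while the windows of the 10 genes stayed at 2. Window counts of 8 to 40 reads per LacZ-shRNA sample limit Pdp1 most.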
